A study of Mus musculus with 12 samples.

Results

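The insulin-like growth factor (IGF) ligands, receptors and binding proteins were examined in mouse embryonic fibroblasts, the connective-tissue cells grown from mouse embryos, at normal oxygen and in hypoxia. The family was taken as 10 genes by symbol, of 48709 gene identifiers counted in every sample: the ligands Igf1 and Igf2, the receptors Igf1r and Igf2r, and the binding proteins Igfbp2 to Igfbp7. All 10 passed the filter on low counts and were among the 14408 genes tested. The family was chosen by measured values, namely the near absence of Igfbp3 counts in one genotype. That difference is therefore given with no p-value, and counts and medians over the family that include it are a description.

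The 12 samples were C57BL/6 fibroblasts in 4 groups of 3: wild-type (WT) or TAZKo cells, at normal oxygen or held for 24 hours in a hypoxia workstation. TAZKo cells are labelled as lacking tafazzin, the enzyme, encoded by Taz, that remodels the mitochondrial lipid cardiolipin, and the series asks how that defect alters the response to low oxygen. The oxygen level, the way the knockout was made, the number of clones or embryos behind each genotype, and whether the 3 samples of a group were separate cultures are not given in the sources used here. The p-values therefore measure the spread between these samples, which may be technical, and a difference between genotypes cannot be told apart from a difference between the cell lines that carry them.

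IGF1 and IGF2 are secreted growth factors that bind the tyrosine kinase receptor IGF1R and through it drive growth and survival signalling, largely over PI3K and AKT. IGF2R, also the cation-independent mannose-6-phosphate receptor, takes up IGF2 for breakdown in lysosomes and carries lysosomal enzymes. IGF-binding proteins 2 to 6 hold the ligands in the extracellular space and set how much reaches the receptor, while IGFBP7 is a related secreted protein with low affinity for IGFs. Fibroblasts secrete several of these binding proteins, and hypoxia-inducible factors are known to act on genes of this system in several cell types.

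Total counts ran from 21039451 to 31204510 per sample, so that 3 counts, the floor used here, equal 0.0961 to 0.1426 CPM, the count scaled to a common library size. Library sizes for CPM were adjusted with the TMM method of edgeR. Adjusted p-values are from the edgeR quasi-likelihood test with Benjamini-Hochberg adjustment over all genes tested. The 95% intervals of log2 differences come from the SE of that fit and so cover the spread between samples. The counting interval, the Poisson limit and the floors cover counting error only. The Taz transcript was not lower in the libraries labelled TAZKo: it was at 34.6 ± 2.92 CPM in WT and 42.2 ± 3.18 CPM in TAZKo under normoxia. Under hypoxia the values were 25.1 ± 1.49 and 33.8 ± 1.15 CPM (SD, n = 3). The transcript thus gives no check of the knockout label, and WT and TAZKo below name the libraries as labelled. Slc2a1, the glucose transporter induced by hypoxia, rose by 2.41 on the log2 scale in WT and by 2.46 in the libraries labelled TAZKo (adjusted p = 1.17e-10 and 1.36e-10). Vegfa, the vascular growth factor induced by hypoxia, rose by 2.71 and 1.44 (adjusted p = 8.37e-11 and 4.25e-08), and these rises differed by -1.27 (adjusted p = 0.000241). Its means were 54.4 CPM in WT and 111 CPM in TAZKo in normoxia, and 355 and 301 CPM in hypoxia. By file name, lane 4 held all samples numbered 1 and the normoxia samples numbered 2, and lane 5 held the rest. Lane 4 thus held a lone sample of each hypoxia group and lane 5 a lone sample of each normoxia group. Calls made or lost within a lane therefore rest on little replication. WT hypoxia sample 1, the lone WT hypoxia sample of lane 4, and WT normoxia sample 1 stood apart for several IGF genes, and calls that change without either are given with and without it. Of 8 fibroblast markers, 5 were above 10 CPM, whereas Thy1 and Lum stayed below 1 CPM and Col1a2 at 1.51 to 5.93 CPM. Summed fibroblast markers were lower in the libraries labelled TAZKo (2280 to 2630 CPM) than in WT (3820 to 5180 CPM), and this was mostly Col1a1 (2830 CPM in WT against 1150 in TAZKo in normoxia). Other markers of the list went the other way: Pdgfrb had 49.6 ± 4.31 CPM in WT and 104 ± 6.63 in TAZKo in normoxia and 24.3 ± 6.78 and 46 ± 2.51 in hypoxia, and Pdgfra had 165 ± 18.6 and 208 ± 15.3 in normoxia. The endothelial marker sum also differed (3.84 to 7.45 CPM against 14.5 to 21 CPM), with the defining marker Cdh5 at or near 0 in all groups. The leukocyte sum was 4.42 to 5.57 CPM in normoxia and 7.99 to 13.8 CPM in hypoxia, with Ptprc and Adgre1 near 0. The epithelial sum was 97.9 to 152 CPM, mostly Krt18, and the neural sum 22.1 to 61.1 CPM, mostly Tubb3. The muscle marker Des had 4.18 CPM in WT and 9.73 in TAZKo in normoxia, with Myod1 and Myog near 0. The cartilage marker Sox9 went from 0.821 to 6.12 CPM with hypoxia in WT and from 1.38 to 6.37 in TAZKo. The part of these marker differences in the results on the IGF genes was not tested. In such bulk RNA fewer cells of a type and less RNA per cell cannot be told apart.

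Promoters of 4 genes are printed: those of the 2 binding proteins the results turn on, and 2 of the 4 that hold ACGTG, one form of the core that hypoxia-inducible factors bind, the other form being GCGTG. Each line gives the 250 bases before the RefSeq start on GRCm38.p6, read 5′ to 3′ on the gene's strand, with every match to ACGTG or its reverse complement CACGT in capitals. Igfbp3 (chr11:7213924-7214173, minus strand) is the gene whose counts were lost, and Igfbp6 (chr15:102143936-102144185, plus strand) is the gene whose hypoxia response differed between genotypes. Igfbp7 (chr5:77408046-77408295, minus strand) and Igf2r (chr17:12769707-12769956, minus strand) show matches at different distances from the start.
Igfbp3: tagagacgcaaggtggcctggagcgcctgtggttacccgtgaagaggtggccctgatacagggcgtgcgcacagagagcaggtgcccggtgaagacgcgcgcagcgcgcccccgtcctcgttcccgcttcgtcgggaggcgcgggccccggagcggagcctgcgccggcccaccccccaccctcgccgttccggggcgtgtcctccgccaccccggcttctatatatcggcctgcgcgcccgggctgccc
Igfbp6: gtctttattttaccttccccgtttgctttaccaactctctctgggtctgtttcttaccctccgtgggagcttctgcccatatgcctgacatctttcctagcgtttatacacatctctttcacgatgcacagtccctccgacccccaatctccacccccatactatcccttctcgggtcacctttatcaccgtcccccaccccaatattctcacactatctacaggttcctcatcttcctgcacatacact
Igfbp7: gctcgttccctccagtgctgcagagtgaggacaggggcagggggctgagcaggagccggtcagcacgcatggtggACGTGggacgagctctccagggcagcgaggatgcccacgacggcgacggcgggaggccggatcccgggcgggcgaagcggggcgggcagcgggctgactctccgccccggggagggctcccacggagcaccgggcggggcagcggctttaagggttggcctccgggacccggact
Igf2r: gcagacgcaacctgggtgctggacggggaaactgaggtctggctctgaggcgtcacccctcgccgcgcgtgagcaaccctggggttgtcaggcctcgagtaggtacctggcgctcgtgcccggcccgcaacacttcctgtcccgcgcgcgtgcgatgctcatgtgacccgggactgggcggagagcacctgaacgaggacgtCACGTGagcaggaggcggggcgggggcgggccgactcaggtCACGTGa
The Igfbp7 match lay 175 bases before the start. Igf2r held the palindrome CACGTG, which is read as a match on both strands and is also an E-box, beginning 48 and 7 bases before the start. RefSeq gave 14 promoters for the 10 genes, and 4 of these 14, from 4 genes (Igf2, Igf2r, Igfbp2 and Igfbp7), held a match, against 16.6% of 32851 promoters of the same length. Among these genes Igf2r and Igfbp7 rose in WT hypoxia, Igf2 fell and Igfbp2 was not called, while Igf1r and Igfbp4 rose in both genotypes without an ACGTG match. The Igf2r call was lost in 16 of 23 alternative ways of processing and the Igf2 call in 10 of 22. GCGTG or its reverse complement CACGC, not capitalised, was found in 6 of the 14 promoters (28.2% of all promoters), those of Igf1, Igf1r, Igf2r, Igfbp2, Igfbp3 and Igfbp7. Either form was found in 7 of the 14, from 7 genes, against 38.6% of all promoters. The Igfbp3 promoter held 32 CpG dinucleotides and that of Igfbp6 held 7, against a median of 6 and quartiles of 2 and 16 over all promoters. A match is a description of the letters, and the lack of one says only that they are not in this window.

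Levels between genes were compared as CPM per kilobase of annotated exon. In WT cells in normoxia Igfbp6 led the family with 153 CPM per kb and Igfbp7 followed with 102. Igf2r was next with 29.5, then Igfbp2 with 8.46, Igfbp5 with 6.1, Igfbp3 with 5.06, Igf1r with 4.54 and Igfbp4 with 1.63 CPM per kb. The ligands were lowest, Igf2 at 0.25 and Igf1 at 0.0538 CPM per kb. Of neighbours in this order, the samples of Igfbp3 and Igf1r overlapped. Igf1 was measured from 10 to 107 counts per library and Igfbp6 from 2208 to 5469.

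Igf1, at chr10:87858265-87937042 on GRCm38 (plus strand; ENSMUSG00000020053), was the ligand that differed between genotypes. In normoxia it had 0.442, 0.614 and 0.543 CPM in WT samples 1 to 3, from 10 to 15 counts, and 2.78, 3.34 and 3.31 CPM in the libraries labelled TAZKo, from 66 to 107 counts. In hypoxia it had 0.65, 0.538 and 0.546 CPM in WT and 2.67, 2.01 and 1.95 CPM in the libraries labelled TAZKo. Every library labelled TAZKo lay above every WT library. The difference was 2.55 ± 0.198 (log2, SE) in normoxia, or 5.85-fold (adjusted p = 5.62e-07), and 1.92 ± 0.208 in hypoxia, or 3.78-fold (adjusted p = 1.25e-05). Chromosome 10 as a whole stood higher in the libraries labelled TAZKo, with a median log2 difference over its 676 tested genes of 0.31 in normoxia and 0.29 in hypoxia. The chromosomes of the other 9 genes had medians between -0.06 and 0.06 in these comparisons. The part of this shift in the Igf1 difference was not tested. Within lanes the Igf1 difference was 2.49 and 2.59 in normoxia (lanes 4 and 5) and 2.03 and 1.86 in hypoxia, the third of these missing the threshold (adjusted p = 0.0965).

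Igf1 was 1.44-fold lower in hypoxia than in normoxia in the libraries labelled TAZKo (log2 -0.53 ± 0.155, adjusted p = 0.014), and their samples did not overlap. The value was -0.22 within lane 4 (adjusted p = 0.705) and -0.75 within lane 5 (adjusted p = 0.0141), and the call was lost without TAZKo hypoxia sample 2 (adjusted p = 0.051) or 3 (adjusted p = 0.053). In WT the change was 0.1 ± 0.268 (adjusted p = 0.811), on 10 to 15 counts a library. The difference of the hypoxia responses did not pass (log2 -0.63, 95% interval -1.35 to 0.09, adjusted p = 0.366), so a genotype-dependent Igf1 response was not shown.

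Igf2 (chr7:142650766-142666816, minus strand; ENSMUSG00000048583), the fetal growth ligand, was low everywhere. WT samples 1 to 3 had 1.59, 1.32 and 1.38 CPM in normoxia and 1.2, 0.987 and 0.728 CPM in hypoxia. The libraries labelled TAZKo had 0.884, 1.08 and 1.39 CPM in normoxia and 0.923, 0.83 and 0.871 CPM in hypoxia. Its fall in WT hypoxia was 1.49-fold (log2 -0.58 ± 0.225, adjusted p = 0.0453), just past the threshold, and missed it when replicate numbers were blocked (adjusted p = 0.0565). It also missed it without WT hypoxia sample 2 (-0.66, adjusted p = 0.0578) or 3 (-0.44, adjusted p = 0.149), or without WT normoxia sample 1 (-0.5, adjusted p = 0.116) or 3 (-0.66, adjusted p = 0.0517). The fall was -0.34 within lane 4 and -0.71 within lane 5, and neither passed. Igf2 passed in no other comparison. Igf2 had 19 to 45 counts per library, and 75.95% of the 50-base words of its transcript also occur in a read-through transcript that is not among the counted genes.

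**Figure D1:**
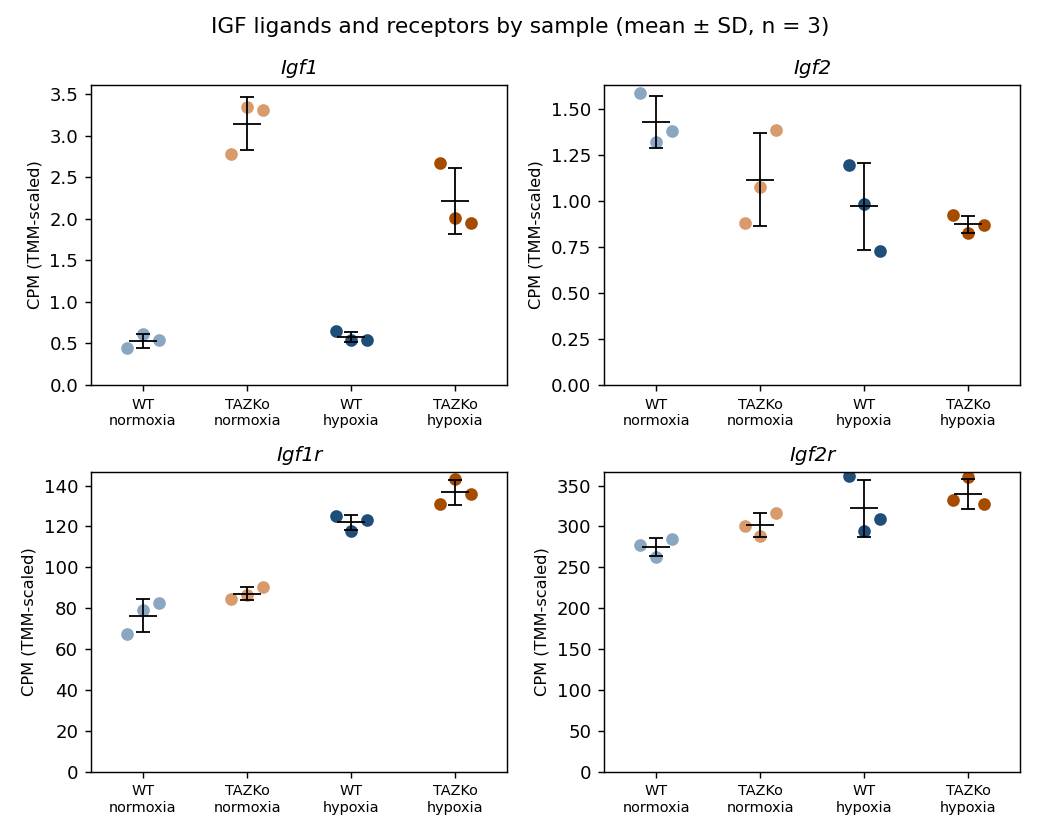
CPM (TMM-scaled, vertical axis) of the 2 ligands and 2 receptors in the 3 samples of each group, with the group mean and SD. Igf1 lies between 1.95 and 3.34 CPM in the libraries labelled TAZKo and between 0.442 and 0.65 CPM in WT, and Igf1r is higher in every hypoxia sample than in every normoxia sample of its genotype.

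Igf1r (chr7:67952827-68233668, plus strand; ENSMUSG00000005533), the signalling receptor, rose in hypoxia in both genotypes. WT samples went from 67.2, 79.1 and 82.6 CPM in normoxia to 125, 118 and 123 CPM in hypoxia. The libraries labelled TAZKo went from 84.5, 86.6 and 90.5 CPM to 131, 143 and 136 CPM. The rise was 1.6-fold in WT (log2 0.68 ± 0.0736, adjusted p = 4.87e-06) and 1.57-fold in TAZKo (0.65 ± 0.0732, adjusted p = 1.08e-05), and the responses differed by -0.03 (95% interval -0.27 to 0.21). Within lane 4 the rise was 0.71 in WT and 0.59 in TAZKo, the latter missing the threshold (adjusted p = 0.0752), and within lane 5 it was 0.53 and 0.61. Between genotypes Igf1r was 0.19 ± 0.0736 higher in TAZKo in normoxia (adjusted p = 0.0634), and this passed when replicate numbers were blocked (adjusted p = 0.0344), and it was 0.11 without WT normoxia sample 1 (adjusted p = 0.154). In hypoxia the difference was 0.16 ± 0.0727 (adjusted p = 0.106), and it passed without WT normoxia sample 1 (adjusted p = 0.0151).

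Igf2r (chr17:12682406-12769664, minus strand; ENSMUSG00000023830), the clearance receptor, was the more abundant receptor per length and changed little. WT samples had 277, 263 and 285 CPM at normal oxygen and 362, 295 and 309 CPM in hypoxia. In TAZKo libraries it had 301, 288 and 317 CPM, then 332, 361 and 327 CPM. Its rise in WT hypoxia was 0.23 ± 0.0764 on the log2 scale (1.17-fold, adjusted p = 0.0231). The call did not hold in 16 of 23 alternatives, among them leaving out any 1 of the 6 libraries labelled TAZKo (0.17), WT normoxia sample 2 (0.14) or 3 (0.19), or WT hypoxia sample 3 (0.2). Without WT hypoxia sample 1, the highest of the 12, the change was 0.08 (adjusted p = 0.308). The rise in TAZKo hypoxia (0.17 ± 0.0762) had an adjusted p of 0.0884.

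Among the binding proteins, Igfbp3 (chr11:7206086-7213923, minus strand; ENSMUSG00000020427), the major carrier of IGFs in plasma, was nearly absent from the libraries labelled TAZKo. In normoxia WT samples 1 to 3 had 14.8, 15 and 17.7 CPM and the libraries labelled TAZKo had 0.0842, 0 and 0.0309 CPM, from 2, 0 and 1 counts. In hypoxia WT samples had 14.9, 8.97 and 8.44 CPM, and all 3 libraries labelled TAZKo had 0 counts. Summed over a group, 1166 counts in WT normoxia stood against 3 in TAZKo, a ratio of 422 with a counting interval of 144 to 2050. In hypoxia 730 counts stood against 0. With TAZKo set to a floor of 3 counts over the group (0.0384 CPM), the ratio was 273. The count of 0 allows up to 0.0472 CPM in TAZKo hypoxia by an exact Poisson limit. That limit lies above the floor, so 273 is not a lower bound.

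The neighbouring gene Igfbp1, 3540 bases away, had 0 or 1 counts in every sample and was not tested. Within WT, Igfbp3 fell in hypoxia by 1.49-fold (log2 -0.57 ± 0.192, adjusted p = 0.0269), although the groups overlapped through WT hypoxia sample 1. Without that sample the fall was -0.92 (adjusted p = 0.000258). It missed the threshold without WT hypoxia sample 2 (-0.52, adjusted p = 0.0721) or 3 (-0.47, adjusted p = 0.0793) or WT normoxia sample 3 (-0.54, adjusted p = 0.0584). Sequencing lane 4, which holds it as its lone WT hypoxia sample, gave -0.07 (adjusted p = 0.888), and lane 5 gave -1.04 (adjusted p = 2.59e-06). The size of the fall thus depends on that library.

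By the highest Pearson correlation of log2 CPM over the 12 samples, the genes most like Igfbp3 were Wnt5a (r = 0.9974), Plxdc2 (0.9964), AI429214 (0.9962), Gdf6 (0.996) and Sfrp1 (0.996). Wnt5a, a secreted Wnt ligand, had 17.4 ± 1.93 CPM in WT normoxia and 0.0281 ± 0.0486 in TAZKo. Sfrp1, a secreted Wnt antagonist, had 20.1 ± 2.68 and 0.592 ± 0.143 CPM. These correlations are descriptions of samples that fall into the same 2 genotype clusters, and none is a test.

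Igfbp6 (chr15:102144362-102149511, plus strand; ENSMUSG00000023046), the binding protein with a preference for IGF2, was the gene whose hypoxia response passed the test of a difference between genotypes. WT samples 1 to 3 had 206, 149 and 155 CPM in normoxia and 125, 99.1 and 105 CPM in hypoxia. The libraries labelled TAZKo had 163, 162 and 159 CPM in normoxia and 195, 189 and 191 CPM in hypoxia. In WT the normoxia samples all lay above the hypoxia samples, and in TAZKo they all lay below them. Igfbp6 fell in WT hypoxia by 1.55-fold (log2 -0.64 ± 0.109, adjusted p = 0.000267), and in TAZKo the change was 0.25 ± 0.108 (adjusted p = 0.0784), which passed without WT normoxia sample 1 (0.25, adjusted p = 0.0054). The responses differed by 0.88 ± 0.153, or 1.85-fold (95% interval 0.53 to 1.24, adjusted p = 0.00777). Genotype made no called difference in normoxia (-0.08 ± 0.108, adjusted p = 0.638, and 0.08 without WT normoxia sample 1), and in hypoxia Igfbp6 was 1.75-fold higher in TAZKo (0.81 ± 0.109, adjusted p = 8.22e-05). Leaving out each of the 12 samples in turn gave 0.73 to 1.01, each past the threshold. Within lane 4 the difference of the responses was 0.81, which was not called, and within lane 5 it was 0.87. In lane 4 alone, with a lone sample of each hypoxia group, the WT fall was -0.57 and the genotype difference in hypoxia was 0.64. Neither of these was called there.

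Igfbp4 (chr11:99041244-99054392, plus strand; ENSMUSG00000017493), an inhibitory binding protein, rose with hypoxia in both genotypes. WT samples had 7.83, 6.54 and 7.17 CPM at normal oxygen and 13, 11.3 and 10.8 CPM in hypoxia. The libraries labelled TAZKo had 9.26, 8.97 and 7.82 CPM, then 25.1, 20.7 and 19.1 CPM, the last 3 of which lay above all other samples. The rise was 1.63-fold in WT (log2 0.7 ± 0.124, adjusted p = 0.000349) and 2.49-fold in TAZKo (1.32 ± 0.117, adjusted p = 1.15e-06). Between genotypes it was 1.85-fold higher in TAZKo in hypoxia (0.89 ± 0.115, adjusted p = 5.8e-05; 0.95 within lane 4, adjusted p = 0.103, and 0.85 within lane 5) and differed by 0.27 ± 0.126 in normoxia (adjusted p = 0.126, or 0.0355 when replicate numbers were blocked). The responses differed by 0.62 ± 0.17, which missed the threshold (adjusted p = 0.0836) and passed it without WT hypoxia sample 1 (0.72, adjusted p = 0.0346).

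Igfbp5 (chr1:72857932-72874884, minus strand; ENSMUSG00000026185), a binding protein that attaches to extracellular matrix, moved the other way and fell with hypoxia in both genotypes. WT samples had 37.3, 34.1 and 38.5 CPM at normal oxygen and 16.9, 10.8 and 9.79 CPM in hypoxia. In TAZKo libraries it had 21.5, 18.7 and 19.9 CPM, then 8.65, 9.27 and 10.5 CPM. The fall was 2.96-fold in WT (log2 -1.57 ± 0.155, adjusted p = 2.03e-06) and 2.11-fold in TAZKo (-1.08 ± 0.159, adjusted p = 0.00011). In normoxia it was 1.83-fold lower in TAZKo (-0.87 ± 0.148, adjusted p = 0.000566), with no overlap, and in hypoxia the difference of -0.38 ± 0.165 did not pass (adjusted p = 0.0945), and it was -0.12 without WT hypoxia sample 1 (adjusted p = 0.425) and -0.54 without WT hypoxia sample 3 (adjusted p = 0.0232). Within lane 4 it was -0.97 (adjusted p = 0.0884) and within lane 5 -0.05 (adjusted p = 0.752). Within lanes 4 and 5 the WT fall was -1.14 and -1.92, and that in TAZKo was -1.25 and -1.02. The difference of responses, 0.49 ± 0.221, did not pass either (adjusted p = 0.306), and passed without WT hypoxia sample 1 (0.78, adjusted p = 0.00706).

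Igfbp2 (chr1:72824503-72852474, plus strand; ENSMUSG00000039323) is a further secreted IGF carrier and lies 5458 bases from Igfbp5. At normal oxygen it had 20.2, 12.9 and 13.7 CPM in WT and 9.93, 7.89 and 8.65 CPM in TAZKo. In hypoxia it had 17.1, 13.5 and 10.9 CPM in WT and 9.23, 9.41 and 8.75 CPM in TAZKo. It was lower in the libraries labelled TAZKo in both conditions, by 1.77-fold in normoxia (log2 -0.82 ± 0.178, adjusted p = 0.00325) and 1.51-fold in hypoxia (-0.59 ± 0.18, adjusted p = 0.0218). The groups did not overlap in either. The difference in hypoxia missed the threshold without WT hypoxia sample 1 (-0.43, adjusted p = 0.0898), TAZKo hypoxia sample 1 (adjusted p = 0.0511) or TAZKo hypoxia sample 3 (adjusted p = 0.0664). Within lanes 4 and 5 the genotype difference was -0.93 and -0.67 in normoxia and -0.89 and -0.42 in hypoxia, and both lane 4 values missed the threshold (adjusted p = 0.0869 and 0.315). Hypoxia itself gave no called change in Igfbp2 in WT (-0.18, 95% interval -0.58 to 0.22) or TAZKo (0.05, -0.38 to 0.47).

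Igfbp7 (chr5:77349240-77408041, minus strand; ENSMUSG00000036256) rose with hypoxia in both genotypes, with no called difference between them. WT samples had 140, 112 and 117 CPM at normal oxygen and 241, 141 and 165 CPM in hypoxia. TAZKo libraries had 111, 109 and 110 CPM, then 171, 153 and 153 CPM. The rise was 1.48-fold in WT (log2 0.57 ± 0.149, adjusted p = 0.0057) and 1.45-fold in TAZKo (0.53 ± 0.149, adjusted p = 0.0105). In WT it was 0.27 (adjusted p = 0.0342) without sample 1 of hypoxia, the highest library, and within lanes 4 and 5 it was 0.87 and 0.38. The rise in TAZKo missed the threshold without TAZKo hypoxia sample 1 (0.45, adjusted p = 0.0531) and within lane 4 (0.61, adjusted p = 0.0835). Igfbp7 shares an 85-base exon overlap on opposite strands with Polr2b, and the kit does not mark strand.

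**Figure D2:**
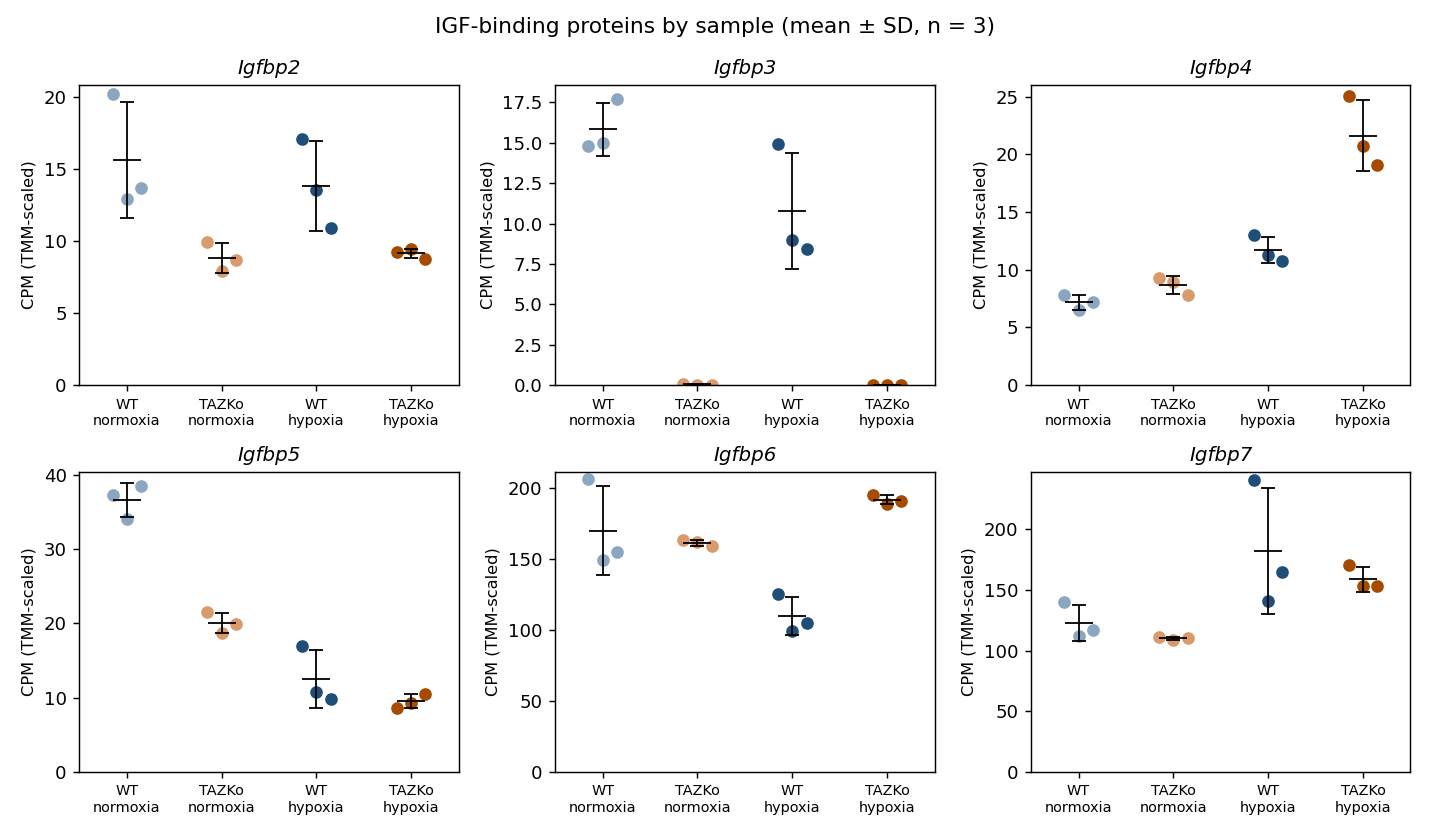
CPM (TMM-scaled, vertical axis) of the 6 binding proteins in the 3 samples of each group, with the group mean and SD. Igfbp3 is at 0 to 0.0842 CPM in all 6 libraries labelled TAZKo, and Igfbp6 in WT falls from 149 to 206 CPM in normoxia to 99.1 to 125 CPM in hypoxia while the libraries labelled TAZKo do not.

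Counted over the family, 4 of the 10 genes passed between genotypes in normoxia, 1 higher and 3 lower, where 30.4% of all genes tested passed (15.6% higher and 14.9% lower). With replicate numbers blocked, which takes same-numbered samples as paired, 6 passed, 3 higher and 3 lower, with 5212 of all genes. In hypoxia 5 passed, 3 higher and 2 lower, against 32.8% (15.8% and 16.9%). Hypoxia in WT gave 8 calls, 4 higher and 4 lower, against 51% (26% and 25%), and hypoxia in TAZKo gave 5, 3 higher and 2 lower, against 43.8% (22.2% and 21.6%). Blocked, hypoxia in WT gave 7, 4 higher and 3 lower, with 8032 of all genes. The difference of the hypoxia responses gave 1, Igfbp6, against 2.43% (0.722% higher and 1.71% lower). Igfbp3 is among the genotype calls, and the family was chosen with such results known, so these counts are a description. The comparisons share samples: WT hypoxia enters the genotype difference in hypoxia and the WT response alike. The median absolute log2 difference of the family, with Igfbp3 included, was 0.3, 0.49, 0.57 and 0.53 in the first 4 comparisons, against 0.2, 0.21, 0.31 and 0.26 for all genes.

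**Figure D3:**
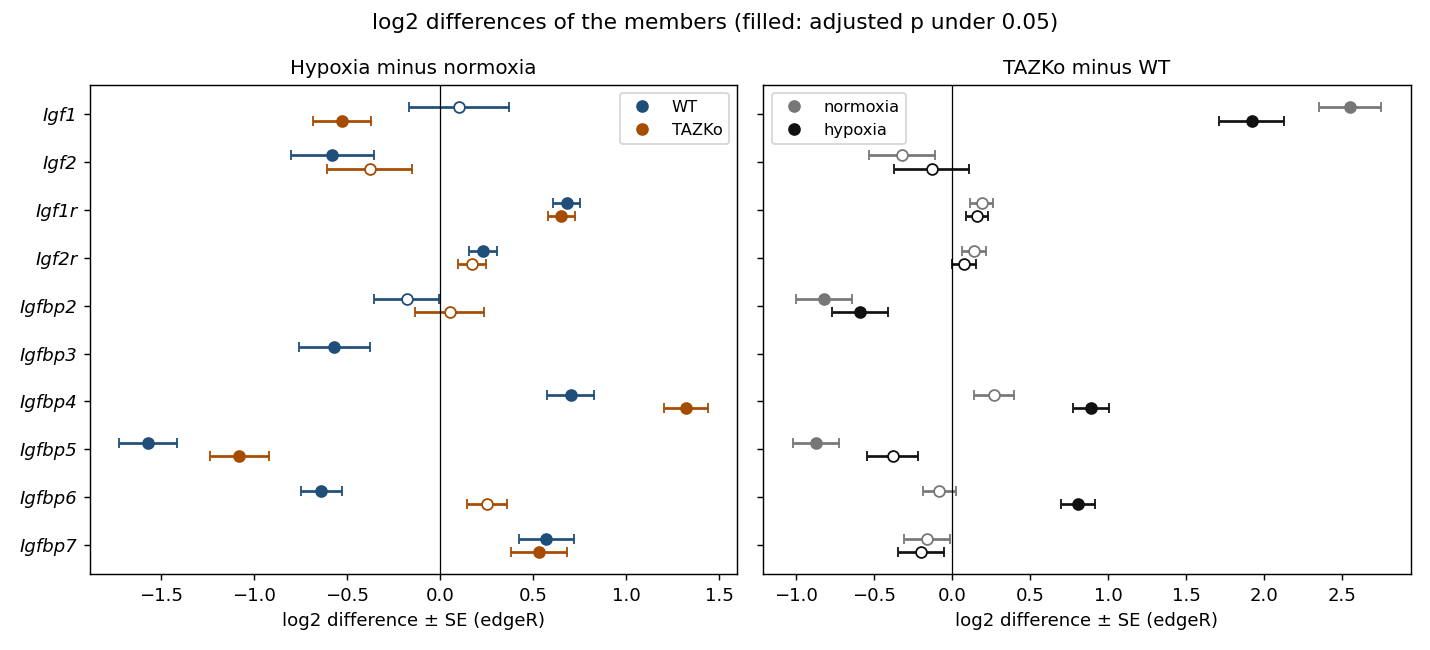
Log2 differences with SE (horizontal axis) from the edgeR fit for each gene, TAZKo minus WT by condition and hypoxia minus normoxia by genotype; filled points passed at an adjusted p under 0.05, and Igfbp3 is shown only for hypoxia in WT. Igf1 has the largest genotype difference shown (2.55 in normoxia), and Igfbp6 has opposite signs in the hypoxia responses (-0.64 in WT and 0.25 in TAZKo).

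As a pool, the 6 binding-protein transcripts summed at normal oxygen to 276 ± 42.4 CPM per kb in WT and 246 ± 3.47 in TAZKo, and in hypoxia to 265 ± 58.1 and 315 ± 12.2 (SD, n = 3). Igfbp6 made up 55.3% of the pool at normal oxygen and 37.7% in hypoxia for WT, and 58.9% and 54.7% for TAZKo. Igfbp7 made up 36.9% and 56.4% in WT, and 37% and 41.7% in TAZKo. Igfbp3, the gene lost in TAZKo, was 1.87% of the WT normoxia pool and 1.28% of the WT hypoxia pool. The other 3 were each at most 3.04% of the pool in every group.

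**Figure D4:**
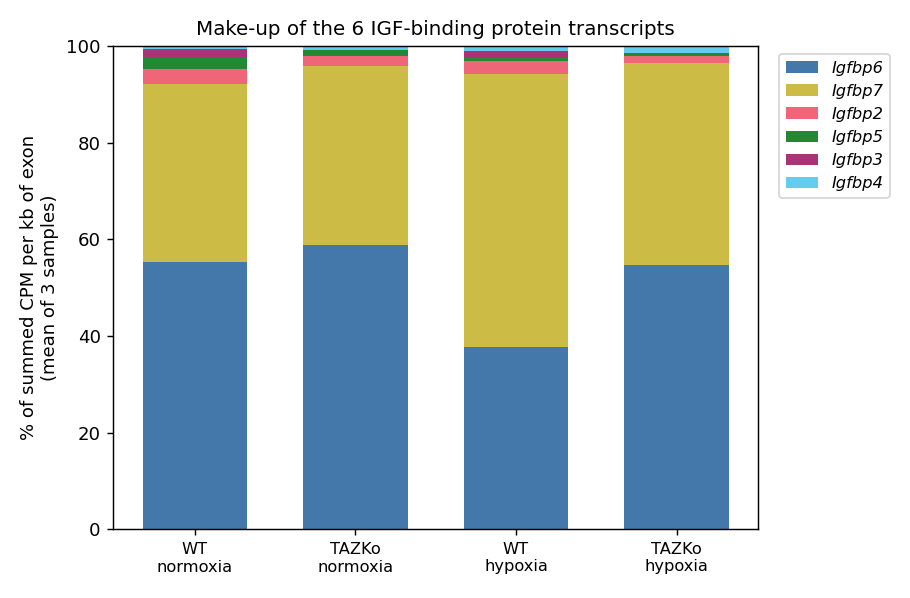
Percent of the summed CPM per kb of exon over the 6 binding proteins (vertical axis, mean of 3 samples), by group. Igfbp6 and Igfbp7 make up most of every bar, and the larger share passes from Igfbp6 to Igfbp7 in WT hypoxia (37.7% and 56.4%).

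The rest of the IGF pathway was read from a list of 48 other genes, of which 41 were tested. Between genotypes 5 were higher and 7 lower in TAZKo in normoxia (29.3% of the list, against 30.4% of all genes), and 6 were higher and 4 lower in hypoxia (24.4%, against 32.8%). The genes named from it all had an adjusted p of at most 0.0477 where a change is stated. The adaptor Irs1 was higher in TAZKo by 0.77 on the log2 scale in normoxia and 0.58 in hypoxia, and Irs2 was lower (-0.37 and -0.38). Grb10, which binds and restrains the receptor, was higher by 0.62 and 0.58. Inppl1, which encodes the lipid phosphatase SHIP2, was lower, with -0.59 and -0.44. Stc2, an inhibitor of the protease that cuts IGFBP4, had the largest called normoxia difference of the list (1.87, adjusted p = 2.99e-06) and 0.34 in hypoxia (adjusted p = 0.0556). The transcript of that protease, Pappa, was nearly absent, at 0 to 3 counts per library, and was not tested. Adam12, a protease of binding proteins, was higher in both conditions (0.61 and 0.86), and Igf2bp2, which binds Igf2 mRNA, was lower in both (-0.19 and -0.26). Pdpk1 was higher in normoxia (0.25, and 0.23 in hypoxia with an adjusted p of 0.0512), and Socs3 and Pik3r2 were lower there (-0.5 and -0.29, and -0.15 and 0.02 in hypoxia, neither called). Socs2, a brake on cytokine and growth factor receptors, was higher in hypoxia (0.32, and 0.25 in normoxia with an adjusted p of 0.0668). The chain from PI3K through AKT to FOXO had 17 tested genes. Between genotypes in normoxia, edgeR called 1 of them higher and 2 lower in TAZKo (17.6%, against 30.4% of all genes). In hypoxia it called 0 (against 32.8% of all genes), with 3 at an unadjusted p under 0.05 and 3 called by DESeq2.

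Hypoxia moved more of the list: 18 rose and 8 fell in WT (63.4% against 51%), and 16 rose and 5 fell in TAZKo (51.2% against 43.8%). Among genes that reached 10 CPM in a group mean, the largest rise was that of Stc2, by 2.98 in WT and 1.45 in TAZKo. Below that level, and named after their values were seen, were Stc1 and Pappa2. Stc1 rose from 0 counts in all 6 normoxia libraries to 11 to 27 counts in WT hypoxia and 2 to 4 in TAZKo hypoxia (adjusted p = 0.000105 and 0.0163). Pappa2, a protease of binding proteins, rose by 1.81 in TAZKo, from 5 to 8 counts per library to 14 to 32 (adjusted p = 0.000682). In WT its change was 0.55 (adjusted p = 0.227), and the difference of responses did not pass (1.25, adjusted p = 0.247). Between genotypes in hypoxia, Stc1 was lower in TAZKo (-2.55, adjusted p = 0.00227) and Pappa2 was higher (0.83, adjusted p = 0.0477). The forkhead factor Foxo3 rose by 0.97 and 0.92, the secreted protease Htra1 by 0.87 and 0.91, and Rictor, a subunit of the mTORC2 kinase complex, by 0.87 and 0.49. Adam12 fell by 1.67 and 1.42, and Tmem219, a receptor of IGFBP3, fell by 0.61 and 0.49. Rptor fell by 0.53 and 0.34, and Mtor fell by 0.34 and 0.3. Stc2 was the list's lone call for a difference of responses (-1.53 ± 0.219, adjusted p = 0.00267), with means of 1.91 ± 0.137 and 15.2 ± 1.49 CPM in WT at normal oxygen and in hypoxia, and 7.11 ± 1.56 and 19.3 ± 1.41 CPM in TAZKo.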

How the data were processed

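The authors deposited 1 table per sample, holding raw read counts by Ensembl gene, and the submitters' processing notes name the build mm10. The kit was TruSeq RNA v2, per the labels' protocols, which as background does not mark strand. The aligner, the counting program and its strand setting are not given in the sources used here. Of 48709 identifiers, 48349 were matched to symbols and GENCODE M21 exon lengths. The 10 genes and the list of 48 further IGF genes were chosen with earlier results of these data known.

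Low genes were removed with filterByExpr, counts were scaled by TMM, and all 12 samples were fitted in edgeR 4.0.16 (limma 3.58.1, R 4.3.3) with a coefficient per group and no covariate, leaving 8 residual degrees of freedom. The SE of a log2 difference is its size over the square root of F. A 95% interval is the log2 difference plus or minus this SE times the t value at 8 degrees of freedom. Calls are at an adjusted p under 0.05 over 14408 genes, in 5 contrasts. The rule for names took all 10 genes, Taz, Vegfa and Slc2a1, up to 4 genes of the list per direction and contrast that passed and had a group mean of 10 CPM or more, and the 5 genes most correlated with Igfbp3; members of the list whose role is described could be added.

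Samples carry replicate numbers 1 to 3, with no stated meaning. Deviations from group means correlated between same-numbered samples at 0.35, 0.15 and 0.23 for the genotypes in normoxia and 0.37, 0.2 and 0.15 for hypoxia in WT. The highest correlation with a sample of another number was -0.23, 0.11 and 0.12, and -0.26, 0.18 and 0.15. The main fit and its p-values take no pairing. For these comparisons, calls that changed when same-numbered samples were blocked as pairs are given beside it. Mainly the samples numbered 1 stood apart, so the pairing is an assumption. Same-numbered samples correlated at 0.06, -0.02 and 0.12 for the genotypes in hypoxia and 0.03, -0.02 and 0.09 for hypoxia in TAZKo. By file name, samples numbered 1 ran in lane 4, those numbered 3 in lane 5, and those numbered 2 in lane 4 in normoxia and lane 5 in hypoxia. Alternatives were other scalings, DESeq2 1.42.0, other filters, the replicate block, the lane, the 6 samples of a comparison, and leaving out each sample.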

Additional observations from a re-analysis of the deposited data

Results flagged for a closer look

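The hypoxia response of Igfbp6 differed between the genotypes by the edgeR test of the difference itself, with a value of 0.88 on the log2 scale (adjusted p = 0.00777). All 3 WT samples in hypoxia were below all 3 in normoxia, and all 3 libraries labelled TAZKo in hypoxia were above all 3 in normoxia.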

How the results depend on the processing

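Over 1128 combinations of a gene's comparison and an alternative, 1025 kept direction and side of the threshold, 47 lost the call, 27 gained one and 29 changed sign, none of them from a called value. The difference of the hypoxia responses varied most in its counts. It was called for 350 genes and 1 of the family, against 578 and 2 with DESeq2, 727 and 3 with no filter, 639 and 2 with the replicate block, and 627 and 3 in lane 5 only. In lane 4 only, edgeR called 0 genes and 0 of the family (437 and 2 at an unadjusted p under 0.05), and DESeq2 was not run there. Each lane held a lone sample in some groups, so counts within a lane rest on little replication. With lane as a covariate 2 of the family were called. Leaving out 1 sample gave 174 to 711 genes and 1 to 3 of the family. Lane 4 only also gave 900 genes between genotypes in normoxia, 250 and 1 of the family in hypoxia, 1637 and 4 for hypoxia in WT, and 949 and 2 for hypoxia in TAZKo. Leaving out 1 sample left 5 to 7 of the family called for hypoxia in WT, with 5 without WT hypoxia sample 3 or WT normoxia sample 3. With library size alone, the genes called for hypoxia were 2966 higher and 4817 lower in WT (main 3750 and 3605) and 2470 and 4393 in TAZKo (main 3198 and 3111), and the median of all genes moved from 0.009 to -0.097 in WT.

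Outside the genotypes in normoxia and hypoxia in WT, the replicate block gave Igfbp6 in TAZKo hypoxia 0.25 (adjusted p = 0.0191). It gave the Igfbp4 difference of responses as 0.61 (adjusted p = 0.0137). The Igf2r rise in WT missed the threshold in 16 of 23 alternatives, the Igf2 fall in WT in 10 of 22, and the Igf1 fall in TAZKo in 4 of 22 (DESeq2 adjusted p = 0.054). The cause was not tested.

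Changes of sign follow, with the range over leaving out 1 sample in parentheses. The value for Igfbp2 was -0.05 with library size alone in TAZKo hypoxia (-0.05 to 0.1), and in WT hypoxia the sign changed without WT normoxia sample 1 (-0.41 to 0.04). The difference of responses was 0.02 with no filter and 0.08 in lane 5 for Igf1r (-0.06 to 0.05), 0.01 and 0.1 for Igfbp7 (-0.16 to 0.23), 0.04 in lane 5 for Igf2r (-0.09 to 0.06) and -0.11 in lane 4 for Igfbp5 (0.36 to 0.78). Between genotypes in hypoxia it was -0.13 in lane 4 for Igf2r and 0.01 in lane 5 for Igf2 (-0.33 to 0.03), and Igfbp7 ranged from -0.36 to 0.04. In normoxia, lane 5 gave 0.01 for Igf2 and 0.03 for Igfbp6 (-0.19 to 0.08). Igf1 in WT hypoxia was -0.02 in lane 5 (-0.03 to 0.15). Depth limits the ligands and Igfbp3 most, at 10 to 107 counts for Igf1 and 19 to 45 for Igf2.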
